A study of Homo sapiens with 3 samples.

Results

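Interferon signalling and interferon-stimulated genes were followed in the neuroblastoma cell lines NGP and IMR-32 and in a pool of cancer cell lines. The genes were a given list of 43 symbols that covers sensors, receptors and their kinases, transcription factors, effectors and feedback inhibitors of the pathway. A gene was measured where at least 1 probe set names it alone. This held for 42 of the 43, which is 42 of 19775 genes on the array, through 86 probe sets. Of these, 18 genes had 1 probe set and 24 had several. STAT2 was not analysed here.

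Transcripts were measured on Affymetrix U133 Plus 2.0 arrays in polyadenylated RNA of NGP, of IMR-32 and of a Reference pool that combines 16 different cancer cell lines, each on a single array. NGP and IMR-32 were in regular growth medium, and no treatment with interferon is described for them. The culture and any treatment of the lines in the pool are not described. NGP and IMR-32 were grown in different media, both with fetal bovine serum, so the medium and the line cannot be told apart. Each line stands for 1 tumour, and the labels do not name the lines of the pool or their cell types.

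Interferons are secreted proteins that warn cells of viral infection. Inside a cell, sensors such as IFIH1 (MDA5) and TLR3 recognise double-stranded RNA and, through adaptors such as MAVS, activate the factors IRF3 and IRF7, which switch on the type I interferon genes. Secreted interferon binds its receptors on the same or other cells, the kinases JAK1, JAK2 and TYK2 phosphorylate STAT proteins, and a complex that contains IRF9 binds the interferon-stimulated response element (ISRE) in the promoters of effector genes. Many effectors also have a low level without added interferon, which differs between cell types.

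Values are MAS5 signal intensities on a linear scale, and the median signal of an array was 98.8 in NGP, 89.9 in IMR-32 and 119 in the pool. A signal below the median of its array is called dim here, since ratios between dim signals are poorly measured. Expression ratios are log2 ratios of 2 arrays, and where a gene has several probe sets the median ratio is used. A gene was called overexpressed when its ratio was among the highest 7% of all genes, and underexpressed when it was among the lowest 7%. For NGP over the pool these cut-offs lay at 1.84 and -2.88, for IMR-32 over the pool at 1.68 and -2.83, and for NGP over IMR-32 at 1.95 and -1.84. The median ratio of all genes was -0.22, -0.23 and 0.02 in these 3 comparisons. With 1 array per sample there was no replicate check, no test was possible and no p-value is given. As a rough guide, the ratios of different probe sets of a gene had a standard deviation of 1.41 for NGP over the pool, 1.31 for IMR-32 over the pool and 1.28 for NGP over IMR-32. Without probe sets dim in both arrays it was 1.09, 0.97 and 0.86 in the same order. This spread comes from the same arrays and does not measure the error between arrays or cultures. Levels are not compared between genes, because probe sets differ in how strongly they bind.

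The lines were checked against marker lists. Of 13 measured sympathoadrenal markers, 11 were overexpressed in NGP and 8 in IMR-32 over the pool, and all 13 had a signal above the array median in every array. In IMR-32, TH, GATA2 and DBH were below the pool (-1.40, -1.34 and -0.33), and CHGB was level with it (-0.01). The 7 epithelial markers were at or above the array median in 2 genes in NGP, in 2 in IMR-32 and in all 7 in the pool. Their median log2 ratio was -6.86 in NGP (range -8.70 to -4.52) and -6.62 in IMR-32 (range -8.16 to -1.88). Of 9 measured haematopoietic markers, 5 reached the array median in NGP, 4 in IMR-32 and 6 in the pool. The share in the pool, 66.7%, was near the 66.4% of all genes there. Their median log2 ratio was -0.49 in NGP and -0.09 in IMR-32. LYN was overexpressed in NGP (2.22), LCP1 was underexpressed in both lines (-3.39 and -4.13), CD3E and CD14 were underexpressed in IMR-32, and PTPRC, the marker of nearly all white blood cells, was dim in every array. Of 8 fibroblast and mesenchymal markers, 6 reached it in NGP, 4 in IMR-32 and 7 in the pool, with median ratios of -0.95 and -2.67. COL1A2 was underexpressed in both lines (-3.80 and -4.91). Both comparisons with the pool therefore set a neuronal tumour line against a mixture with epithelial and some mesenchymal transcripts. That mixture also had a signal above the array median for every measured sympathoadrenal marker. The haematopoietic markers did not settle whether the pool held blood cell lines. The part of these cell type differences in the interferon results was not tested. In a pool, a few lines with a high level and many lines with a moderate level cannot be told apart.

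Effector genes were low in both neuroblastoma lines, while the receptors and kinases above them were close to the pool. Of the 42 genes, 14 were underexpressed and 2 overexpressed in NGP over the pool, which is 33.3% and 4.76% beside a background of 7% of all genes at each end (1384 of 19775). In IMR-32 over the pool, 13 were underexpressed and 3 overexpressed, or 31.0% and 7.14% beside 7% of all genes. The median log2 ratio of the 42 genes was -1.31 in NGP and -1.32 in IMR-32. The 25 effectors held 13 of the underexpressed genes in NGP and 11 in IMR-32, and their medians were -3.06 and -2.47. The 7 receptors and kinases held none, and their medians were -0.39 and -0.41. In NGP, 35 of the 42 genes had a ratio below 0, beside 57.7% of all genes, and in IMR-32 37 of 42, beside 58.4%.

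The number of genes with a clear signal showed the same pattern. At least 1 probe set reached the array median in 18 of the 42 genes in NGP, in 21 in IMR-32 and in 38 in the pool (42.9%, 50% and 90.5%). Over all genes the share was 61.2% in NGP, 61.7% in IMR-32 and 66.4% in the pool. Among the 25 effectors, 6 reached it in NGP, 8 in IMR-32 and 23 in the pool. Among the 7 receptors and kinases, 6 reached it in NGP, all 7 in IMR-32 and all 7 in the pool.

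**Figure D1:**
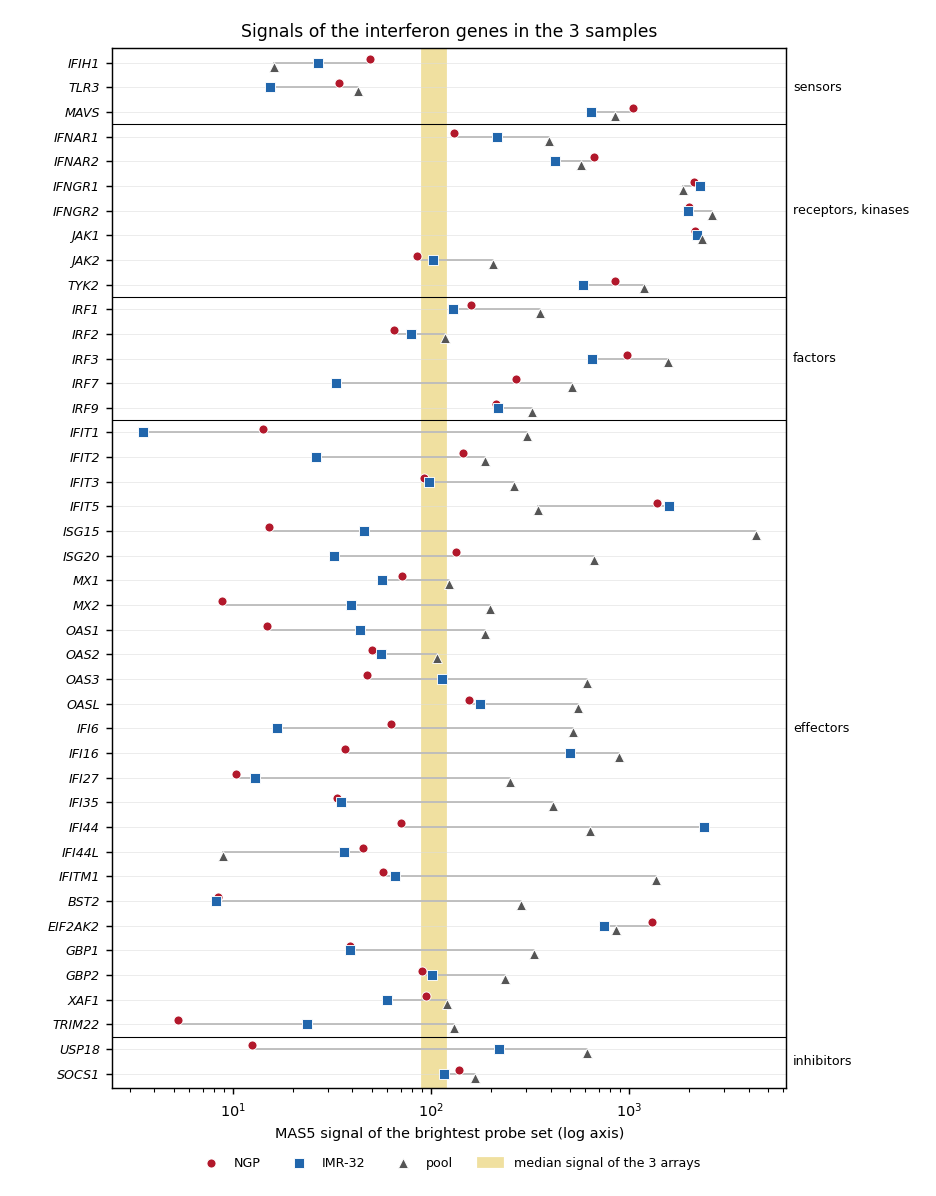
MAS5 signal of the brightest probe set (highest mean log2 signal over the arrays) of each of the 42 genes (log axis), by role, in NGP, IMR-32 and the pool; the yellow band spans the 3 array medians. Most receptors and kinases are above the band in all 3 arrays, while most effectors are above the band in the pool and below it in both lines.

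Sensors and their adaptor were the first step examined. MAVS, the mitochondrial adaptor of the RNA sensors, had signals of 1039 in NGP, 639.9 in IMR-32 and 843 in the pool on its brightest probe set. All 4 of its probe sets were above the array medians in every sample, and its log2 ratio was 0.01 in NGP and -0.26 in IMR-32. The adaptor was thus present at a like level in the 3 samples.

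The RNA sensors themselves were barely measured. IFIH1 had signals of 1.96 in NGP, 18.9 in IMR-32 and 224 in the pool on one probe set, 33.1, 3.11 and 30.1 on another, and 48.9, 26.7 and 16.0 on the last. Only the pool signal of the first of these was above its array median, so the gene was seen clearly in the pool alone. Its log2 ratio of -3.28 in IMR-32 placed it among the underexpressed genes, but its probe sets ranged from -3.57 to 0.74, and in NGP, where its value was 0.14, from -6.84 to 1.61. TLR3, the endosomal sensor of double-stranded RNA, was dim on all 3 probe sets in all arrays, with a highest signal of 47.8 in the pool.

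The receptors and their kinases had a clear signal in both lines, except JAK2 in NGP. IFNGR1, the ligand-binding chain of the interferon gamma receptor, had signals of 2113 in NGP, 2273 in IMR-32 and 1873 in the pool, and log2 ratios of 0.31 and 0.60 over the pool. IFNGR2, its partner chain, had signals of 1998 in NGP, 1978 in IMR-32 and 2619 in the pool (ratios -0.39 and -0.41). JAK1, the kinase shared by both receptor types, had signals of 2149 in NGP, 2198 in IMR-32 and 2318 in the pool on its brightest probe set, and its ratio over all 5 probe sets was -0.02 in NGP and -0.00 in IMR-32. The gene ratio of each of these 3 was smaller than the spread between probe sets. Single probe sets of IFNGR1 ranged from 0.17 to 1.86 in NGP and from 0.28 to 2.02 in IMR-32. Those of JAK1 ranged from -0.76 to 1.41 in NGP and from -2.84 to 0.38 in IMR-32.

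The chains of the type I interferon receptor differed slightly from each other. IFNAR2 had signals of 666 in NGP, 423 in IMR-32 and 567 in the pool (ratios 0.23 and -0.42). IFNAR1 had signals of 130.4 in NGP, 215 in IMR-32 and 392 in the pool on its brightest probe set, and ratios of -1.15 and -0.91, and all 4 of its probe sets were lower in both lines than in the pool. TYK2, the kinase bound to IFNAR1, had a ratio of -0.49 in NGP and -1.03 in IMR-32, and JAK2, which serves the gamma receptor, -1.29 and 0.08. The probe set of JAK2 with the highest pool signal had 84.2 in NGP, 101 in IMR-32 and 206 in the pool, and all 3 of its probe sets were dim in NGP. The 7 ratios ranged from -1.29 to 0.31 in NGP and from -1.03 to 0.60 in IMR-32, and none passed a cut-off.

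Of the transcription factors, IRF7 was the one that separated the lines. IRF7, which amplifies interferon production and is itself induced by interferon in many cells, had signals of 268 in NGP, 33.0 in IMR-32 and 513 in the pool. Its log2 ratio was -0.94 in NGP and -3.96 in IMR-32 over the pool, and 3.02 for NGP over IMR-32, on the 1 probe set of this gene. The IMR-32 signal was dim, and with 32 added to every signal IMR-32 over the pool was -3.07 and NGP over IMR-32 was 2.21. It was the only member of the 5 measured factors past a cut-off in any comparison.

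The other factors stayed inside the cut-offs. IRF3, the constitutive factor that sensors activate first, had signals of 972 in NGP, 647 in IMR-32 and 1561 in the pool (ratios -0.68 and -1.27). IRF9, the DNA-binding part of the complex that binds the ISRE, had 213 in NGP, 216 in IMR-32 and 322 in the pool (ratios -0.59 and -0.57). IRF1, an activator induced by interferon gamma, had 159 in NGP, 128 in IMR-32 and 354 in the pool on its brighter probe set (gene ratios -1.34 and -0.69). IRF2, which opposes IRF1 at many promoters, had ratios of -0.85 and -0.58 and was dim in all samples. All 5 factors were below the pool in both lines.

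**Figure D2:**
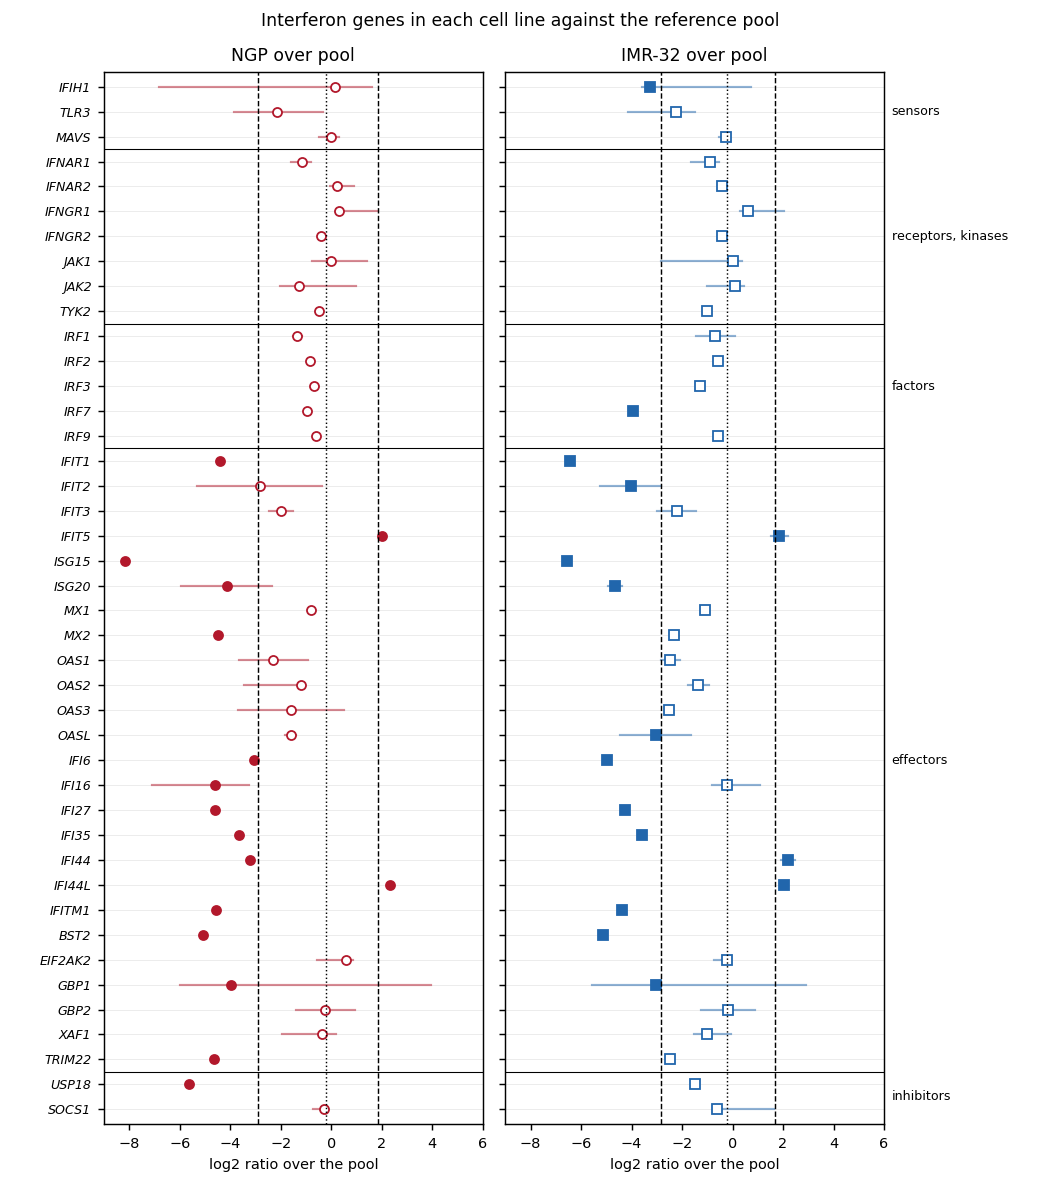
Log2 ratio over the pool of each of the 42 genes in NGP (left) and IMR-32 (right), by role. Points are medians over probe sets, bars the range over probe sets, filled points genes past the cut-offs (dashed), and the dotted line the median of all genes. Effectors reach -8.16 in NGP and -6.57 in IMR-32, while the 7 receptors and kinases lie between -1.29 and 0.60.

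The lowest effector was ISG15, a ubiquitin-like protein that is attached to other proteins after interferon. Its signal was 15.1 in NGP, 45.8 in IMR-32 and 4341 in the pool, so it was dim in both lines and far above the array median in the pool. The log2 ratio was -8.16 in NGP and -6.57 in IMR-32. Since the signals of both lines were dim, the size of these ratios is uncertain, and with 32 added to every signal they were -6.54 and -5.81. ISG15 lies on distal chromosome 1p, a region lost in IMR-32 by copy number arrays that were not analysed here. Its ratio of NGP over IMR-32 was -1.60, between 2 dim signals.

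Membrane-associated antiviral proteins were low in the same way. IFITM1, which blocks virus entry at membranes, had signals of 56.9 in NGP, 65.5 in IMR-32 and 1358 in the pool (ratios -4.58 and -4.37). Another probe set that names both IFITM1 and its neighbour IFITM2, and so was left out, had 7.86 in NGP, 11.4 in IMR-32 and 1305 in the pool. BST2 (tetherin), which holds budding virus particles at the cell surface, had 8.39 in NGP, 8.17 in IMR-32 and 284 in the pool (ratios -5.08 and -5.12). Both genes were dim in both lines, and the lines differed from each other by 0.20 or less on the log2 scale.

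IFI6 and IFI27, small related membrane proteins induced by type I interferon, were also underexpressed in both lines. IFI6 had signals of 62.5 in NGP, 16.7 in IMR-32 and 522 in the pool (ratios -3.06 and -4.97). It too lies on distal 1p, and its ratio of NGP over IMR-32 was 1.91, just inside the cut-off of 1.95. Over the pool, the NGP call of IFI6 was lost with cut-offs at 5% or with dim probe sets left out. IFI27 had 10.3 in NGP, 12.9 in IMR-32 and 249 in the pool (ratios -4.59 and -4.27). IFI35, an interferon-induced leucine zipper protein, had 33.2 in NGP, 34.9 in IMR-32 and 414 in the pool (ratios -3.64 and -3.57). All 3 genes have 1 probe set, and all were dim in both lines.

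ISG20, an exonuclease that degrades single-stranded RNA, had signals of 7.10 in NGP, 14.3 in IMR-32 and 438 in the pool on one probe set and 132.7, 32.3 and 665 on the other. The ratios of the gene were -4.14 in NGP and -4.65 in IMR-32. NGP kept a signal above its array median on the second probe set, where the ratio was -2.32. GBP1, a large GTPase induced mainly by interferon gamma, had ratios of -3.99 and -3.04. On 3 of its 4 probe sets the pool signal was between 239 and 329 and both lines were at 38.9 or lower, while the fourth ran the other way with 44.4 in NGP, 21.7 in IMR-32 and 2.87 in the pool, all dim. With the mean over probe sets GBP1 was called in neither line (-2.50 and -2.18). MX2 and TRIM22, both restriction factors of retroviruses, passed the lower cut-off only in NGP. MX2 had 8.80 in NGP, 39.3 in IMR-32 and 198 in the pool (ratios -4.49 and -2.33), and TRIM22 had 5.29, 23.7 and 131 in the same samples (ratios -4.63 and -2.46). Both were dim in both lines, so their order in NGP and IMR-32 is poorly measured.

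Some promoters of effectors that hold letters of an ISRE are shown, so that they can be read side by side. In each stretch the capitals mark the letters GAAANNGAAA, the core spacing of an ISRE, or, where they read TTTC, 2 bases, TTTC, the same letters on the other strand. The sequences are from RefSeq windows of GRCh38.p14 that run from 250 bases before to 50 bases after a start site, and all stretches lie upstream of the start. The first 7 genes were underexpressed in both lines, IFIT5 was overexpressed in both, and IFI44 was underexpressed in NGP and overexpressed in IMR-32. GBP1 and IFI35 were also underexpressed in both lines and are not shown. The window of GBP1 holds the letters, and that of IFI35 lacks them.
ISG15, chr1:1013369-1013414, plus strand: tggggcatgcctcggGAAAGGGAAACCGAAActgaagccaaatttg
IFITM1, chr11:313985-314024, plus strand: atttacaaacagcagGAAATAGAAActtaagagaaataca
BST2, chr19:17405730-17405775, minus strand: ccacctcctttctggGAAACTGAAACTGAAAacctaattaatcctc
IFI6, chr1:27672261-27672363, minus strand: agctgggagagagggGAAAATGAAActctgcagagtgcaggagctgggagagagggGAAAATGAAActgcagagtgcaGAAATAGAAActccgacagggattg
IFI27, chr14:94110613-94110665, plus strand: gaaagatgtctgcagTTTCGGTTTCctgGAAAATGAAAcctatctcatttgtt
ISG20, chr15:88638932-88638971, plus strand: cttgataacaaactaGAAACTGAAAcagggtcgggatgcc
IFIT1, chr10:89392492-89392544, plus strand: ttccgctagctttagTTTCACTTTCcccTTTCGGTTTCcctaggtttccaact
IFIT5, chr10:89414508-89414567, plus strand: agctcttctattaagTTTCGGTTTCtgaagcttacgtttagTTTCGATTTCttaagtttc
IFI44, chr1:78649756-78649795, plus strand: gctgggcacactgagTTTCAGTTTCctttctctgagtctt

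ISG15 and BST2 hold 2 overlapping matches, which read as GAAA repeated 3 times at a spacing of 2 bases. IFI6 holds 3 separate matches, and IFIT1, IFI27 and IFIT5 hold 2 each. The IFI44 stretch runs from -75 to -36 relative to one of its start sites, and the IFIT5 stretch from -60 to -1. The matched letters thus look alike in the shown genes that were low in both lines and in IFIT5, which was high in both.

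Of the 42 measured genes, 31 had a promoter window, and 18 of these (58.1%) held the ISRE letters on either strand. Over all genes with a window, 1195 of 27305 (4.38%) held them, and over all windows 1255 of 35116 (3.57%). The letters TTCNNNGAA of the gamma-activated site, an element of genes induced by interferon gamma, were in 9 of the 31 genes (29.0%) and in 2560 of the 27305 (9.38%). Matches of the 2 motifs can overlap, as they do in the stretches of BST2 and IFI27. The 18 genes with ISRE letters had a median log2 ratio of -2.61 in NGP and one of -2.77 in IMR-32, and 9 of them were underexpressed in each line. The 13 genes without had medians of -0.59 and -0.57, and 2 of them were underexpressed in NGP and 1 in IMR-32. Since 15 of the 18 were effectors, role and motif largely coincide. Within the effectors, the 15 genes with the letters had a median of -3.20 in NGP and -3.04 in IMR-32, and the 4 without had -2.97 and -1.74. A match describes letters only, and binding was not measured.

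The IFIT proteins bind foreign RNA and block its translation, and their genes lie side by side on chromosome 10 in the order IFIT2, IFIT3, IFIT1B, IFIT1, IFIT5. IFIT1 had signals of 14.2 in NGP, 3.50 in IMR-32 and 303 in the pool (ratios -4.42 and -6.44). IFIT2 had 145, 26.1 and 186 in NGP, IMR-32 and the pool on one probe set and 5.75, 5.98 and 228 on the other, and ratios of -2.83 and -4.04. IFIT3 had 61.9 in NGP, 43.8 in IMR-32 and 346 in the pool on the probe set with the higher pool signal, and ratios of -2.0 and -2.20, inside the cut-offs.

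IFIT5, at the end of this cluster, was the exception. Its signals were 1383 in NGP, 1579 in IMR-32 and 347 in the pool on one probe set and 694, 492 and 172 on the other. Every signal was above its array median, and both lines were above the pool on both probe sets. The log2 ratio was 2.00 in NGP and 1.85 in IMR-32, which is 4.01-fold and 3.61-fold higher, and the probe sets ranged from 2.00 to 2.01 in NGP and from 1.51 to 2.19 in IMR-32. With cut-offs at 5% of genes it was no longer called in either line. IFIT5 and IFIT1 are adjacent genes, and in each line they lay at opposite ends of the distribution.

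MX1 and the OAS genes stayed inside the cut-offs, unlike MX2, the neighbour of MX1 on chromosome 21. MX1, a GTPase that traps viral nucleocapsids, had signals of 71.1 in NGP, 56.7 in IMR-32 and 122 in the pool (ratios -0.78 and -1.11). OAS1, OAS2 and OAS3 make a messenger of linked adenylates that activates an RNA-cleaving enzyme. Their ratios ranged from -2.29 to -1.20 in NGP and from -2.51 to -1.36 in IMR-32, with none past a cut-off. OAS3 had signals of 47.6 in NGP, 113 in IMR-32 and 611 in the pool on one probe set and 100.1, 11.7 and 70.1 on the other, so its probe sets gave opposite orders of the lines.

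OASL, an OAS relative that lacks the enzymatic activity, lies next to P2RX7 in a region of 12q24.31 that is amplified in NGP by the copy number arrays. Its signals were 127 in NGP, 15.3 in IMR-32 and 334 in the pool on one probe set and 155, 176 and 549 on the other. The log2 ratio was -1.61 in NGP and -3.04 in IMR-32, so it was below the pool in the line with the amplicon and underexpressed in the other, where the brightest probe set alone gave -1.64 and no call. NGP over IMR-32 was 1.44, inside the cut-off, from probe sets at 3.05 and -0.18. The 2 probe sets therefore do not give 1 answer on whether OASL was higher in NGP.

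EIF2AK2 (PKR), a kinase that halts translation on sensing double-stranded RNA, had signals of 1297 in NGP, 742 in IMR-32 and 860.4 in the pool on its brightest probe set, and ratios of 0.59 and -0.21. It was above the array medians in all 3 samples. GBP2, a relative of GBP1, had ratios of -0.23 and -0.16, and XAF1, an antagonist of the apoptosis inhibitor XIAP, -0.35 and -1.0. The probe sets of both disagreed in sign in NGP. Of the 10 effectors inside the cut-offs in NGP, ratios ran from -2.83 (IFIT2) to 0.59 (EIF2AK2).

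The feedback inhibitors differed from each other. USP18, which strips ISG15 from proteins and blocks signalling at IFNAR2, had signals of 12.4 in NGP, 221 in IMR-32 and 612 in the pool. Its log2 ratio was -5.63 in NGP and -1.47 in IMR-32, inside the cut-off. The NGP signal was dim, and with 32 added to every signal its ratio was -3.86. SOCS1, an inhibitor of the JAK kinases, had 138 in NGP, 116 in IMR-32 and 166 in the pool on its brightest probe set and ratios of -0.28 and -0.60. In IMR-32, USP18 was above the array median on its 1 probe set.

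The comparison of NGP with IMR-32 does not use the pool. In it 5 of the 42 genes were underexpressed and 2 overexpressed in NGP, which is 11.9% and 4.76% beside a background of 7% of all genes at each end, and the median log2 ratio was 0.11. For 18 of the 42 genes every probe set was dim in both lines. Those called were IFI44, IFI16, USP18, MX2 and TRIM22 at the lower end and IRF7 and IFIT1 at the upper end. MX2, TRIM22 and IFIT1 were among the dim genes, which leaves 4 genes measured with a clear signal in at least 1 line.

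**Figure D3:**
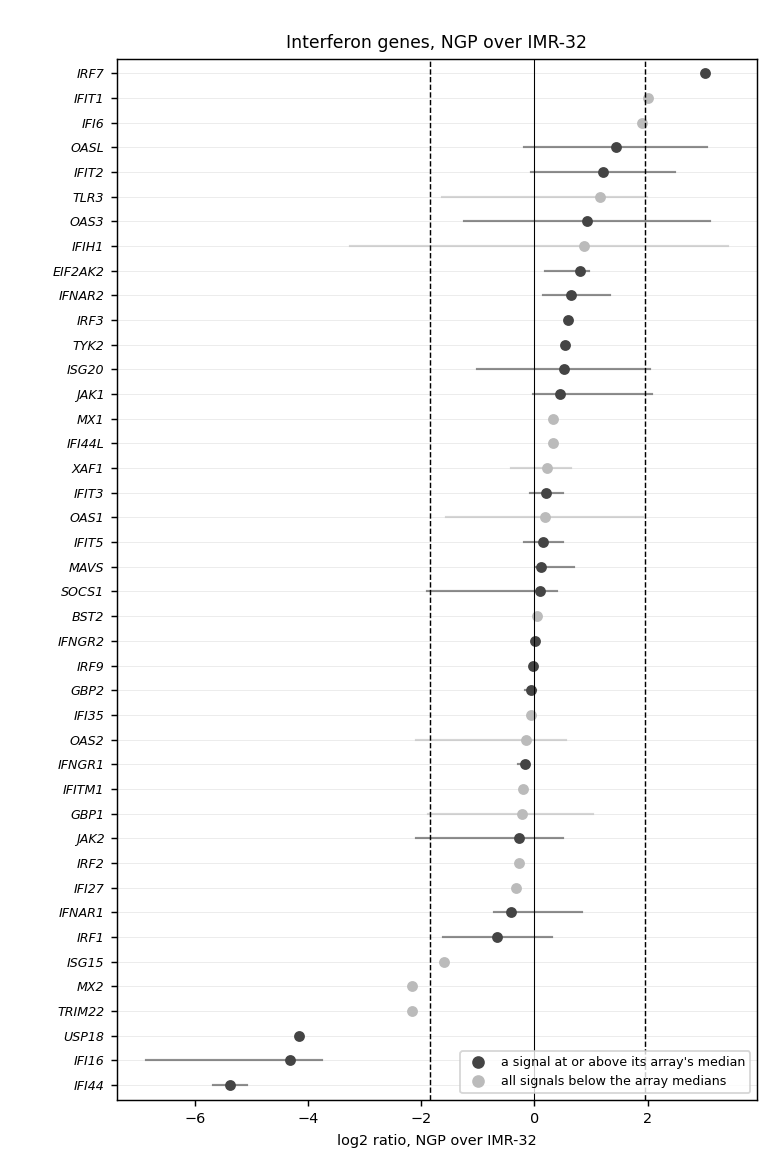
Log2 ratio of NGP over IMR-32 of the 42 genes, sorted, with the range over probe sets as bars and the cut-offs dashed; grey points are genes with all signals below the array medians of both lines. IFI44 (-5.39), IFI16 (-4.32) and USP18 (-4.16) stand far below the rest, and IRF7 (3.02) above.

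IFI44, a cytoplasmic protein induced by type I interferon, differed more between the lines than any other of the 42 genes. Its signals were 70.0 in NGP, 2380.2 in IMR-32 and 632 in the pool on one probe set and 19.1, 984 and 179 on the other. NGP was dim on both probe sets, while IMR-32 was above the pool on both. NGP over IMR-32 was -5.39 on the log2 scale, with probe sets at -5.69 and -5.09, and -4.44 with 32 added to every signal. Over the pool it was underexpressed in NGP (-3.20) and overexpressed in IMR-32 (2.19, or 4.55-fold). The call in NGP was lost with cut-offs at 5% or with dim probe sets left out. Its neighbour and relative IFI44L was dim in every array, with 45.2 in NGP, 36.2 in IMR-32 and 8.91 in the pool. IFI44L counted as overexpressed in both lines (2.34 and 2.02), but it did not with 32 added to every signal (0.92 and 0.74).

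IFI16, a nuclear DNA sensor of the PYHIN family on chromosome 1, was the second gene low in NGP alone. Its 3 probe sets had signals of 36.9, 12.5 and 5.84 in NGP, 501, 250 and 681 in IMR-32, and 889, 119 and 791 in the pool. All 3 NGP signals were dim and all 3 IMR-32 signals were above the array median. Its ratio of NGP over IMR-32 was -4.32, with probe sets from -6.86 to -3.76, and over the pool it was -4.59 in NGP and -0.22 in IMR-32. USP18 had a ratio of -4.16 between the lines on 1 probe set, which was -2.51 with 32 added to every signal.

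The lines thus differed in which effectors had a clear signal. The 6 in NGP were IFIT2, IFIT5, ISG20, OAS3, OASL and EIF2AK2. The 8 in IMR-32 were IFIT3, IFIT5, OAS3, OASL, IFI16, IFI44, EIF2AK2 and GBP2, so 4 were shared, and IFI44 and IFI16 were the ones that passed a cut-off between the lines. IFIT3 and GBP2 hardly differed between the lines and lay near the array medians. On the probe sets concerned they had 91.5 and 89.7 in NGP and 97.1 and 100.8 in IMR-32. OAS3 reached the median on a different probe set in each line. ISG15, IFITM1, BST2, IFI6, IFI27, IFI35, GBP1 and IFIT1 were dim in both lines.

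**Figure D4:**
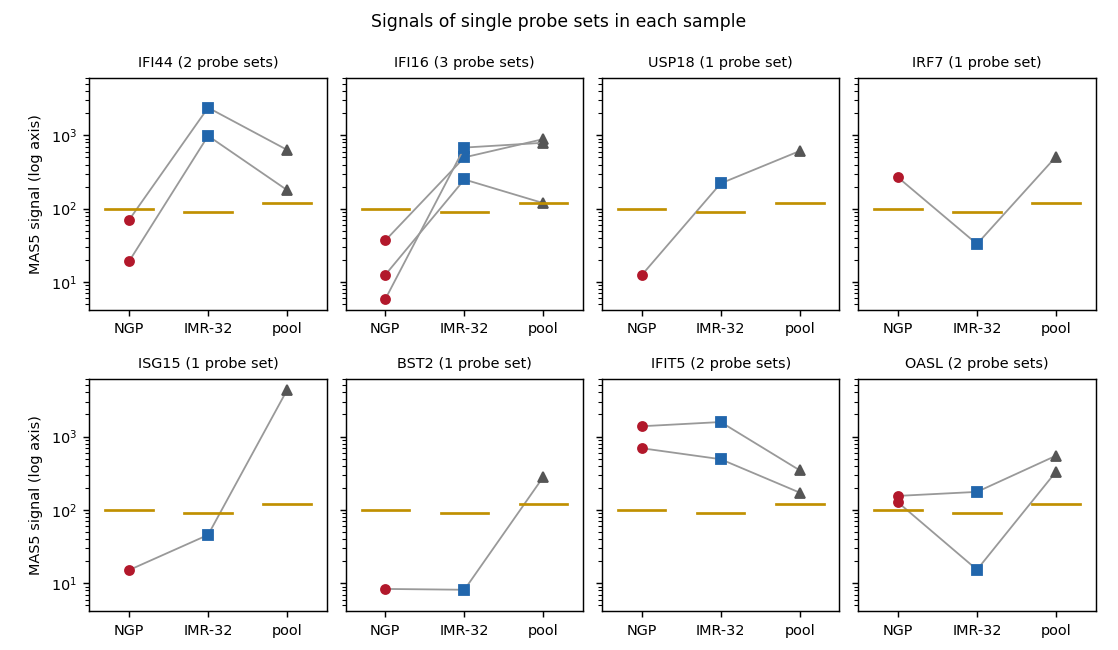
MAS5 signals (log axis) of every probe set of 8 genes in NGP, IMR-32 and the pool, with points of 1 probe set joined and the array medians as gold bars. IFI44 and IFI16 are low in NGP alone on every probe set, IRF7 is low in IMR-32 alone, ISG15 and BST2 are low in both lines, IFIT5 is higher in both, and the probe sets of OASL disagree.

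Other genes of the pathway were counted from 5 further lists. Of 76 genes, 70 were measured. In NGP over the pool 12 of the 70 were underexpressed and 2 overexpressed (17.1% and 2.86%, beside 7% of all genes at each end), with a median of -1.32. Both overexpressed genes, IFNG and RTP4, were dim in both arrays, as were IFNA8 and IFNE among the underexpressed. In IMR-32 over the pool 12 were underexpressed and 0 overexpressed (17.1% and 0%, beside 7%), with a median of -1.0. Among the underexpressed, IFNA1 and IFNA8 were dim in both arrays. For NGP over IMR-32, 8 were underexpressed and 9 overexpressed (11.4% and 12.9%, beside 7%), with a median of 0.06, and 38 of the 70 were dim in both lines. Dim in both lines were all but HERC5 of the 9 overexpressed, and IFNA2, IFNE and TRIM5 of the 8 underexpressed.

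The low genes again lay mostly among the interferon-stimulated genes. Of 32 further interferon-stimulated genes, 9 were underexpressed in NGP and 10 in IMR-32 (28.1% and 31.2%, beside 7% of all genes), with medians of -1.92 and -1.78. IFITM2 and IFITM3, the neighbours of IFITM1, had signals of 29.1 and 28.4 in NGP, 70.9 and 19.1 in IMR-32, and 7016 and 6993 in the pool. The 3 IFITM genes are near-identical in parts, and their probe sets may read each other's transcripts. GBP3, beside GBP1, had a ratio of -5.81 in NGP and of -3.98 in IMR-32, and DDX60, a helicase that aids RNA sensing, -4.34 and -3.60. The immunoproteasome subunit PSMB8 had -5.64 and -5.61. A second immunoproteasome subunit, PSMB9, had -2.61 and -5.90, and TAP1, a peptide transporter, -2.74 and -3.11. SAMD9, an antiviral factor against poxviruses, had -3.07 and -5.15, and SP110, a nuclear body protein, was underexpressed in IMR-32 (-3.16).

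An adjacent pair of genes on chromosome 3 followed the pattern of IFI16. DTX3L, a ubiquitin ligase, had signals of 15.5 in NGP, 432 in IMR-32 and 779 in the pool, and its partner PARP9 had 8.16, 445 and 547 on one probe set and 128, 222 and 284 on the other. NGP over IMR-32 was -4.80 for DTX3L and -3.28 for PARP9, and over the pool both were underexpressed in NGP (-5.65 and -3.61) and inside the cut-offs in IMR-32 (-0.85 and -0.33). TRIM5, a retrovirus restriction factor, was likewise underexpressed over the pool in NGP (-3.64) and not in IMR-32 (-0.51), with dim signals in both lines. HERC6, a relative of HERC5, had a ratio of -2.08 between the lines, from probe sets at -4.14 and -0.03. HERC5, the ligase that attaches ISG15, ran the other way with 208 in NGP, 31.6 in IMR-32 and 464 in the pool, and a ratio of 2.72 between the lines. UBE2L6, the conjugating enzyme for ISG15, was picked out after its values were seen and had 1673 in NGP, 1079 in IMR-32 and 692 in the pool. UBE2L6 was above the array median in both lines and was called in neither over the pool (ratios 1.27 and 0.64).

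None of 12 other genes of the sensing pathway was past a cut-off over the pool in either line, beside 7% of all genes at each end. At that share a list of 12 may hold none. Of the 12, 11 were below the pool in NGP and 10 in IMR-32, beside 57.7% and 58.4% of all genes. Their medians were -1.82 and -0.82. The NGP median was thus close to that of the further interferon-stimulated genes. STING1, the adaptor of DNA sensing, came nearest the cut-off in NGP, with ratios of -2.85 and -2.34, and CGAS, the DNA sensor above it, had -2.62 and -0.70. IKBKE, a kinase of IRF3 and IRF7, was underexpressed in NGP over IMR-32, with 40.1 in NGP, 177 in IMR-32 and 140.3 in the pool on one probe set and a gene ratio of -2.21. TLR9, a sensor of DNA, had 10.7 in NGP, 90.7 in IMR-32 and 60.6 in the pool, a ratio of -3.08 between the lines that rests on a signal just above the IMR-32 array median. Of 7 other receptors and factors, NLRC5, the activator of MHC class I genes, was underexpressed in NGP, with 17.1 in NGP, 46.8 in IMR-32 and 137 in the pool (ratios -3.00 and -1.55). None of the 7 negative regulators was called in any comparison, which for so short a list is near the 7% of all genes at each end. All 12 measured interferon genes themselves were dim in all 3 arrays, with IFNL2 at 86.1 in NGP, 46.4 in IMR-32 and 82.6 in the pool among the highest, so no interferon transcript was clearly detected in any sample.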

How the data were processed

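The intensities were deposited by the authors as MAS5 signal on a linear scale, computed from the scans with the Bioconductor package affy (version not given in the sources used here). Leaving out the top and bottom 2% of signals gave a mean of 500 on every array, so arrays were compared without further scaling.

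From 54675 probe sets, 62 controls were dropped. Among the remainder, 41091 carry a single gene symbol, 1801 carry several and 11721 carry none. Only single-symbol probe sets were used, and 41037 of them were brought to current symbols by gene ID. The log2 ratio of 2 arrays was taken for each probe set with no pseudocount, and a gene was given the median of its probe sets. Calls were the top and bottom 7% of 19775 genes, the rule in the study's methods. Of these genes, 10523 have several probe sets. Signals are given for called members whose higher signal reached its array median, for OASL, ISG15 and IFI6, which lie in regions of copy number change, and for up to 3 other bright members per role. Other pathway genes so called are given by ratio, some with signals. The members, lists and rules were chosen with earlier results of these data known. Copy number arrays were not analysed here.

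Alternatives were centring each comparison on its median, quantile normalization, adding 32 to each signal, dropping dim probe sets, taking the brightest probe set or the mean, dropping _s_at and _x_at probe sets (which can match several transcripts), and cut-offs of 5% and 10%. The ratio calculation was tested on simulated data. Tools were Python 3.11.15 with numpy 2.4.6, with pandas 2.3.3, with SciPy 1.17.1 and with matplotlib 3.10.9.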

Additional observations from a re-analysis of the deposited data

Results flagged for a closer look

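IFI44 moved in opposite directions in the 2 lines on all of its probe sets. Its log2 ratio over the pool was -3.20 in NGP and 2.19 in IMR-32, and with 1 array per sample the difference was not tested.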

How the results depend on the processing

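No paired analysis was possible because each sample has 1 array, and for the same reason no replicate could be left out. Without the _s_at and _x_at probe sets, 33 of the genes were still measured (TYK2, IRF7, IFIT5, ISG15, IFI16, IFI35, IFITM1, TRIM22 and SOCS1 were not), and those underexpressed over the pool numbered 8 in NGP and 8 in IMR-32, against 14 and 13 of 42. The overexpressed genes in NGP over the pool, 2 as reported, were 1 with log2(signal + 32), with dim probe sets left out, without the _s_at and _x_at probe sets and with the 5% cut-offs. In NGP over IMR-32, 2 genes were overexpressed as reported and 1 with log2(signal + 32) and with the 5% cut-offs, which was IRF7, and 1 without the _s_at and _x_at probe sets, which was OASL. Underexpressed there were 5 genes as reported and 3 under each of these settings and with dim probe sets left out, which measured 24 genes. The median of the genes stayed between -1.59 and -0.97 in NGP over the pool, between -1.37 and -0.90 in IMR-32 over the pool, and between -0.03 and 0.21 in NGP over IMR-32. The 350 values of single genes under the alternatives cover only called genes and OASL. Of these values, 317 kept direction and call, 31 lost the call and 1 reversed. The call was gained by 1, OASL in NGP over IMR-32 (3.05 without the _s_at and _x_at probe sets). A call gained by any other member was not counted. With dim probe sets left out, for example, IFIT2 (2.48) and ISG20 (2.04) passed the upper cut-off of 1.66 in NGP over IMR-32. No call could be lost by centring on the median, which keeps the order of genes, or with the wider cut-offs. Each of these settings gave 41 of the 317 by construction, so those values do not test the calls. The reversal was IFIH1 in IMR-32 over the pool, 0.74 with the probe set of the highest mean log2 signal over the arrays, which was dim in all of them, against -3.28. The calls of IFIT1, MX2 and TRIM22 in NGP over IMR-32 were lost with log2(signal + 32), at 0.38, -0.80 and -0.58, since their signals are dim in both lines.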
